A study of Mus musculus with 3 samples.

Results

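Zmym2 overexpression in mouse embryonic stem cells (ESCs) was examined by setting the transcriptome of 1 overexpressing line (OE) against that of wild-type cells (WT), both of the E14tg2a line. Genes entered the comparison when their normalised counts averaged at least 50 over the 3 libraries of the series, which are OE, a Zmym2 knockout (KO) and WT, and 12896 of the 39179 genes in the table did so. OE cells carried a Zmym2 expression cassette in a PiggyBac transposon, which had been introduced by lipid transfection and selected with a drug. KO cells carried Cas9-made frameshifts on both Zmym2 alleles, and WT cells carried neither change. All 3 lines were grown in serum with LIF, the cytokine that sustains mouse ESC self-renewal. No empty-vector library was analysed here, so transposon insertion, drug selection and the level of Zmym2 cannot be told apart, and the sources used here do not give whether the OE line was a clone or a pool. The line descriptions stored with the OE and KO libraries are exchanged relative to their titles, and groups were taken from the titles.

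ZMYM2, also called ZFP198, is a nuclear zinc finger protein of the MYM type that binds SUMO-modified proteins and is found with the LSD1-CoREST histone demethylase and deacetylase complex. ESCs in serum with LIF hold a heterogeneous pluripotent state, in which adhesion to the matrix, contractility of the actin cytoskeleton and secreted signals are all known to bear on whether cells self-renew or differentiate. The gene families and pathways described are those beyond the lineage genes.

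Zmym2 itself had 57139 normalised counts in OE, 4370.1 in KO and 7956 in WT, so its level went with the titles. This was 7.18 times WT (95% counting interval 7.02 to 7.35). The libraries held 41840774 gene reads for OE, 46995766 for KO and 50120551 for WT. Each group was 1 library, so no difference can be set against a spread between replicates and no p-value is given. The intervals are exact binomial (Clopper-Pearson), cover counting error only, and cannot show how far a second culture would differ. Of the defining ESC markers, Pou5f1 had 31522 normalised counts in OE and 36973 in WT, and Nanog had 15810.3 and 17584, both close to WT. Sox2 was at 0.613 of its WT level and Zfp42 at 0.599, so the OE library still held ESC transcripts at high level.

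Genes at least 2-fold apart were mostly higher in OE. On the scale log2(normalised count + 1), 1256 genes, or 9.74% of those compared, were at least 2-fold higher in OE than in WT, and 403, or 3.12%, were at least 2-fold lower. Each list or family count below is to be read beside these shares. At 10-fold the counts were 102 higher and 2 lower, and at 5-fold they were 333 higher and 30 lower. The median gene differed by -0.02 on the log2 scale, and 52.2% of genes lay below WT, so the higher genes formed a long tail on one side of a centre close to WT. A gene low in WT could pass the level minimum only through its level in another library. Among the 12459 genes with at least 50 normalised counts in WT, 969 (7.78%) were 2-fold higher in OE and 380 (3.05%) were 2-fold lower. The same minimum applied to OE gave 9.97% of genes higher and 2.13% lower. At 1.5-fold, 2049 genes (15.9%) were higher and 1074 (8.33%) lower. KO set against the same WT library had 2.43% of genes 2-fold higher and 3.09% lower, 5.53% either way. The plot of all genes shows the tail of higher genes at low, middle and high levels.

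**Figure D1:**
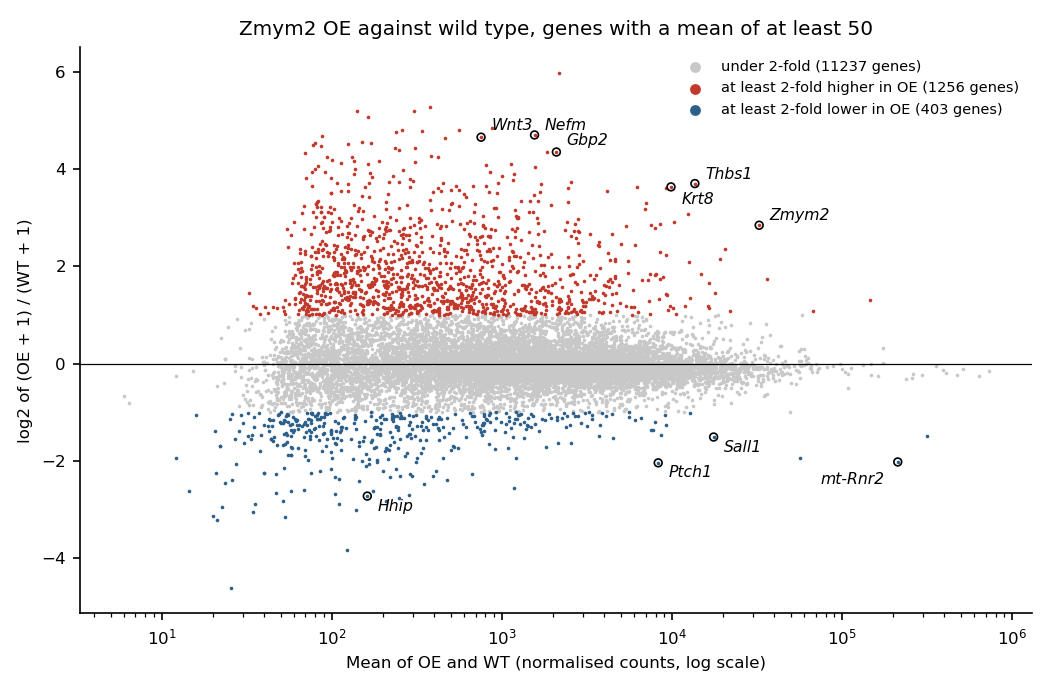
Ratio of OE to WT for the 12896 genes compared. The horizontal axis is the mean of the OE and WT normalised counts on a log scale, the vertical axis is log2 of (OE + 1)/(WT + 1), each point is a gene, and colours mark genes at least 2-fold higher (1256) or lower (403) in OE. Circled genes are named in the text, and the points above the zero line reach further from it than the points below.

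Contractile genes were higher in OE as a group. All 27 members compared, of 30 listed, lay above WT, 18 of them at least 2-fold, with a median log2 ratio of 1.52 against -0.02 over all genes. Among the 25 members with at least 50 normalised counts in WT, 16 were 2-fold higher and 0 were 2-fold lower. In bulk RNA, a larger number of cells of a contractile type and more RNA per cell cannot be told apart. The list holds the actin isoforms and actin-binding proteins that build stress fibres, many of them known targets of serum response factor (SRF), which binds the CArG box in their promoters.

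Promoters that hold this motif are shown because the genes beside them were among those higher in OE. In RefSeq promoter windows of 300 bases (most of it before the gene's start and the rest after it, GRCm38.p6), 23 of the 27 contractile genes had a window and 6 of these held a CArG box on either strand (26.1%), against 1.63% of all 32851 windows and 1.48% of the 9434 genes compared that had a window. The 6 genes were Acta1, Actc1, Cnn2, Myl9, Srf and Vcl. A match is a description of the letters, not a measured binding site. The list was written from contractile genes, many of them known SRF targets, so this share describes the list and not the change in OE. The windows below lie at chr8:123894726-123895025 (minus strand) for Acta1, chr2:114052826-114053125 (minus strand) for Actc1 and chr2:156775214-156775513 (plus strand) for Myl9. They read 5′ to 3′ along the gene, with the CArG box in capitals.
Acta1: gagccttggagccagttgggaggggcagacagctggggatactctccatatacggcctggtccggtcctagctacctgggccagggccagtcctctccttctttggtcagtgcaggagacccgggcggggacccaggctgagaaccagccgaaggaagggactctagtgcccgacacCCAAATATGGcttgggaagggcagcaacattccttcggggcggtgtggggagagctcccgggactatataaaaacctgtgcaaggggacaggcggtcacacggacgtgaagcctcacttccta
Actc1: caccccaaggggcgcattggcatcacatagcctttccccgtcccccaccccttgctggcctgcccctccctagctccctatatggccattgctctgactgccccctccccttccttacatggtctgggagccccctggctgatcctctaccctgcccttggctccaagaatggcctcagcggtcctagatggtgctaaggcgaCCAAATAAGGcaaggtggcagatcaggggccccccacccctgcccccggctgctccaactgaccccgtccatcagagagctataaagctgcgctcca
Myl9: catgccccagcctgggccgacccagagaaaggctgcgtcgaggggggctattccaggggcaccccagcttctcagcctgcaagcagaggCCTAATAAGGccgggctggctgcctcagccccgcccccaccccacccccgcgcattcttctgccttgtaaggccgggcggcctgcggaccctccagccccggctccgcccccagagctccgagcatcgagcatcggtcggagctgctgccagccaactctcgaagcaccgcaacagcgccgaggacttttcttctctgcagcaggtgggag

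The striated-muscle actins with these promoters were far above WT. Actc1, cardiac actin, had 499.6 normalised counts in OE, 4.04 in KO and 17.01 in WT (29.4-fold over WT, interval 18.4 to 50.02). Actc1 met the level minimum only through OE, so it had to differ. Acta1, skeletal muscle actin, had 1601 in OE, 14.1 in KO and 104 in WT (15.4-fold, 12.7 to 18.9). The actin genes are close copies of each other in their coding parts, and the handling of reads shared between copies is not stated in the methods, so their separate values are uncertain. The smooth muscle genes moved with them. Tagln, which encodes the actin-bundling protein transgelin, had 11495 in OE, 105 in KO and 929 in WT (12.4-fold, 11.6 to 13.2). Acta2, smooth muscle actin, had 4408 in OE, 51.5 in KO and 712 in WT. Cald1 (caldesmon) was 8.49 times WT, Csrp1 7.18 times, Cnn1 (calponin) 6.18 times, and Tgfb1i1, the focal adhesion adaptor HIC-5, 10.3 times. The 3 members under the level minimum were Actg2, Mylk and Myh11. The same list set in KO against the shared WT library had a median of -0.46. Other cardiac and skeletal muscle markers were not higher, since 0 of the 7 compared, of 19 listed, lay above WT and 3 were 2-fold lower, at a median of -0.93. Fibroblasts also use these proteins, and the summed level of 17 fibroblast markers was 6692 normalised counts in OE, 938 in KO and 1596 in WT, with Lum and Postn under the level minimum. That sum includes Col1a1 and Col3a1, with 3077 and 992 normalised counts in OE, which are also counted with the collagens below.

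YAP and TEAD targets and caveolae genes, which respond to cytoskeletal tension, were also high in OE. Of 24 listed genes, 23 were compared, 18 were at least 2-fold higher and 0 were 2-fold lower, with a median log2 ratio of 1.78. Nt5e, a membrane nucleotidase, had 1525 normalised counts in OE and 88.8 in WT (17.2-fold, 13.9 to 21.4). Cav1 and Cav2, the caveolins that coat caveolae, were 13.2 and 9.05 times WT, with 1772 normalised counts of Cav1 in OE, 8.08 in KO and 134 in WT. Cav2 had 28.3 in WT and met the level minimum only through OE. Cyr61, a matricellular YAP target, had 10265 in OE and 1888 in WT, and the tumour-suppressor kinase gene Lats2, itself a YAP target in a feedback loop, had 1281 and 209.8. Focal adhesion, actin regulator, S100 and annexin genes held 20 higher and 0 lower of 56 compared, at a median of 0.62. Among them, Nedd9, an adhesion scaffold, was 13.3 times WT, Parva (parvin) 9.98 times, and the annexin genes Anxa3, Anxa1 and Anxa5 12.3, 7.48 and 6.37 times. Small GTPase genes of the cytoskeleton and their regulators were less one-sided, with 16 higher and 1 lower of 61 compared and a median of 0.32. The lower gene was Dock2, an activator of RAC in blood cells, with 37.4 normalised counts in OE and 84.1 in WT.

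**Figure D2:**
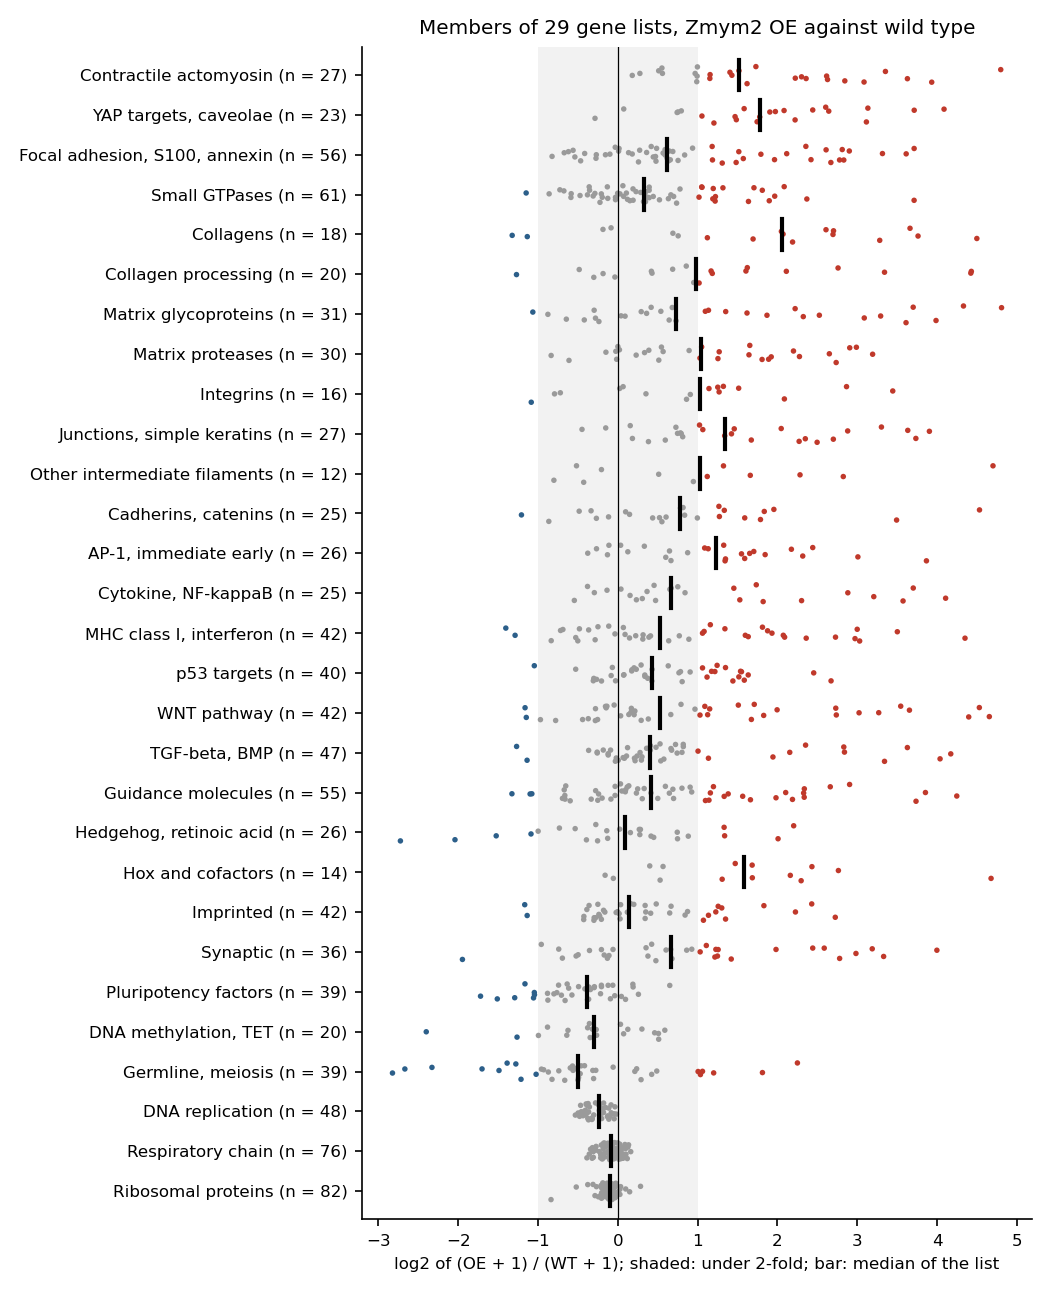
Members of 29 gene lists, OE against WT. Each point is a gene compared, the horizontal axis is log2 of (OE + 1)/(WT + 1), black bars are list medians and the shaded band holds differences under 2-fold. The contractile, YAP and collagen lists have medians of 1.52, 1.78 and 2.06, while the respiratory chain and ribosomal protein lists stay inside the band.

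Collagens and the enzymes that fold and cross-link them were higher together. Of 31 collagen genes, 18 were compared, 12 were 2-fold higher and 2 were 2-fold lower, at a median log2 ratio of 2.06, and among the 15 with at least 50 normalised counts in WT these counts were 9 and 2. Col3a1, a fibrillar collagen of stroma, had 992 normalised counts in OE, 0 in KO and 77.5 in WT. The basement membrane genes Col4a5 and Col4a6 were 13.9 and 26.4 times WT, the second with only 5.67 normalised counts in WT and a wide interval of 11.8 to 73.2. Col4a1 and Col4a2, the common basement membrane chains, had 6451 and 4576 in OE and 1992 and 1105 in WT. Col13a1, a transmembrane collagen, went the other way, at 0.395 of WT, as did the fibrillar Col5a3 at 0.451. Among the processing genes 10 of 20 were higher and 1 was lower, at a median of 0.99. Of the 17 with at least 50 normalised counts in WT, 7 were higher and 1 was lower, at a median of 0.86. The lysyl oxidases Lox and Loxl4, which cross-link collagen, had 448 and 588 normalised counts in OE and 19.8 and 26.5 in WT. Both met the level minimum only through OE, so they had to differ. Bmp1, the procollagen C-proteinase, was 10.2 times WT and the collagen chaperone gene Serpinh1 4.32 times. The lower gene, Adamts14, encodes a procollagen N-proteinase and was at 0.415 of WT.

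Other matrix genes were mostly higher, with a few chains lower. Matrix glycoprotein genes held 15 higher and 1 lower of 31, at a median of 0.73. Among the 26 with at least 50 normalised counts in WT, 10 were higher and 1 was lower, at a median of 0.59. Thbs1 (thrombospondin, an activator of latent TGF-beta) had 25317 normalised counts in OE, 352 in KO and 1946 in WT (13.01-fold, 12.4 to 13.6). Igfbp3, which binds insulin-like growth factors, had 17129.8 in OE, 1346 in KO and 1401 in WT. Tnc (tenascin C) and Bgn (biglycan) were 9.89 and 16.3 times WT, whereas Smoc1 was at 0.478. Of 9 laminin genes, 3 were higher and 1 was lower. Among the 7 laminin genes with at least 50 normalised counts in WT, 1 was higher and 1 was lower. Lamb3, a chain of epithelial laminin, had 403 normalised counts in OE and 29.3 in WT, while Lama1, the main embryonic alpha chain, had 2577 normalised counts in OE and 5177 in WT. Integrins held 8 higher and 1 lower of 16, at a median of 1.03. Itga3, the receptor chain for epithelial laminin, had 20322 normalised counts in OE and 4782 in WT, and Itgb8, which activates TGF-beta, was 11.3 times WT. Itgb8 had 24.6 in WT and met the level minimum only through OE. Matrix proteases and their inhibitors held 16 higher and 0 lower of 30, at a median of 1.04. Among the 27 with at least 50 normalised counts in WT, 13 were higher and 0 lower, at a median of 0.89. The higher genes took in both sides of the balance. The gelatinase Mmp9 was 8.05 times WT, the plasminogen activators Plau and Plat 7.82 and 6.75 times, and the inhibitors Timp3 and Timp2 4.85 and 4.62 times. Plau had 19.8 normalised counts in WT and met the level minimum only through OE. Of 28 proteoglycan and hyaluronan genes, 9 were higher and 0 lower, at a median of 0.44, and included Cd44, the hyaluronan receptor, at 12.1 times WT and Has2, a hyaluronan synthase, at 6.08 times.

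Epithelial and mesenchymal filament genes were higher in the same library. Tight junction, desmosome and simple keratin genes held 16 higher and 0 lower of 27, all 27 with at least 50 normalised counts in WT, at a median log2 ratio of 1.34. Krt8 and Krt18, the paired keratins of simple epithelia, had 18258 and 12754 normalised counts in OE, 491 and 579.9 in KO, and 1471 and 1292 in WT. Krt19 was 13.3 times WT, the desmosomal cadherin gene Dsc2 15.1 times and desmoplakin (Dsp) 7.36 times. The same keratins mark trophoblast, and its marker list moved in the same direction (8 of 10 compared 2-fold higher). Krt7, Krt8 and Krt18 are among those 8 and are counted in both lists. Of 12 other intermediate filament and lamin genes, 6 were higher and 0 were 2-fold lower. Nefm, a neurofilament subunit, had 2997 normalised counts in OE, 63.6 in KO and 114 in WT (26.2-fold, 21.8 to 31.7). Vim, the mesenchymal filament vimentin, had 24955 in OE, 6535 in KO and 7895 in WT, and Nes (nestin) was 7.09 times WT. The neurofilament family was not uniform, since Nefl was 4.87 times WT while Nefh, chosen after its value was seen, was at 0.574. Cadherin and catenin genes held 9 higher and 1 lower of 25, at a median of 0.79, and the 9 included N-cadherin (Cdh2), at 2.52 times WT. E-cadherin (Cdh1), outside the naming rule and chosen after its values were seen, had 43925 normalised counts in OE and 39650.1 in WT. Transcription factors of epithelial to mesenchymal transition held 7 higher and 1 lower of 16, with Foxc1 at 8.54 times WT, Zeb2 at 3.10, Snai2 at 3.05 and Twist1 at 2.61, and with Zeb1 lower, at 0.445. Foxc1 and Snai2 had under 50 normalised counts in WT, and among the 14 factors that reached 50 there, 5 were higher and 1 was lower. Among immunoglobulin-type adhesion and gap junction genes 2 of 19 were higher, a share near the 9.74% of all genes, namely Alcam (4.14-fold) and Nrcam (3.58-fold), and 1 was lower, Pecam1, with 843 normalised counts in OE and 2777 in WT.

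WNT ligand genes were higher without exception among those compared. Of 19 Wnt genes in the table, 10 passed the level minimum and 10 were at least 2-fold higher, at a median log2 ratio of 3.28. Among the 148 symbol families with at least 10 genes compared this was the highest share, ahead of Chst with 6 of 10. Because 4 of the 10 had under 50 normalised counts in WT and so had to be higher elsewhere, the 6 with at least 50 in WT were also counted, and 6 of 6 were 2-fold higher. Wnt3, needed for primitive streak formation, had 1452 normalised counts in OE, 16.2 in KO and 56.7 in WT (25.6-fold, 19.8 to 33.7). Wnt4 had 1498 in OE, 30.3 in KO and 118 in WT, and Wnt6 had 478 in OE, 23.2 in KO and 21.7 in WT. Wnt10a rested on few WT reads (5.67 normalised counts), with a ratio of 26.98 and an interval of 12.1 to 74.8. Ligands of the non-canonical kind were among them too, Wnt5b at 8.50 times WT and Wnt5a at 3.20 times.

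The wider WNT list, with receptors, inhibitors and targets, held 18 higher and 2 lower of 42, at a median of 0.52. Among the 37 with at least 50 normalised counts in WT, 13 were higher and 2 lower, at a median of 0.21. Transcripts that beta-catenin is known to induce went both ways. Sp5 had 3543 normalised counts in OE, 162 in KO and 367 in WT, and Axin2, the feedback inhibitor, had 2637, 1085 and 925 in the same order. The 2 lower genes both encode secreted WNT inhibitors, Notum, itself a beta-catenin feedback target, at 0.452 of WT and Sfrp1 at 0.447. Frizzled receptors divided, with Fzd10 at 3.99 times WT and Fzd5 at 0.511 of WT, while 4 of the 10 Fzd genes were 2-fold higher and 0 were 2-fold lower. Axin2, Wnt5a and the Fzd genes fall outside the naming rule and were chosen after their values were seen.

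**Figure D3:**
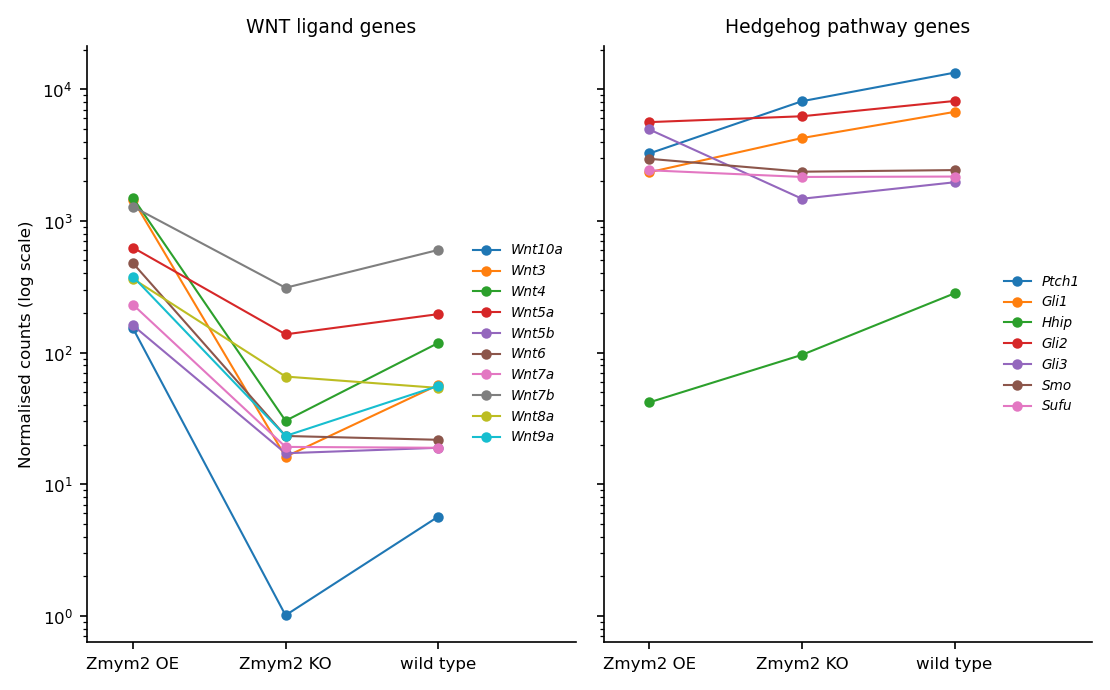
Normalised counts, on a log axis, of the 10 WNT ligand genes compared (left) and 7 Hedgehog pathway genes (right) in the OE, KO and WT libraries. Each line joins the 3 values of a gene, 1 library a point. The WNT ligands are highest in OE, and Ptch1, Gli1 and Hhip are lowest in OE and highest in WT.

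Hedgehog feedback genes were the opposite. The Hedgehog and retinoic acid list as a whole was centred near WT, with 4 higher and 4 lower of 26 and a median of 0.09, but the lower genes included Ptch1, Gli1 and Hhip, transcripts that Hedgehog signalling is known to induce. Ptch1, the receptor, had 3248 normalised counts in OE, 8098 in KO and 13347 in WT (0.243 of WT, interval 0.234 to 0.253). Gli1, the transcription factor that amplifies the signal, had 2339 in OE, 4251 in KO and 6720.0 in WT (0.348 of WT, 0.331 to 0.365). Hhip, a ligand-binding inhibitor, had 41.8 in OE, 95.97 in KO and 282 in WT. All 3 were lowest in OE and highest in WT, with KO between. The transducers were nearer to WT, with Smo at 1.22 and Sufu at 1.12 times WT and Gli2 at 0.691, values outside the naming rule that were chosen after they were seen. Gli3, which is mostly a repressor form without ligand, had 4943 in OE, 1471 in KO and 1963 in WT. The ligand genes Shh, Ihh and Dhh were under the level minimum. The other 3 higher members belong to retinoic acid metabolism, with the degrading enzyme Cyp26a1 at 4.74 times WT and the synthetic enzymes Rdh10 and Aldh1a3 at 4.03 and 2.55 times.

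TGF-beta and BMP genes held 11 higher and 2 lower of 47, at a median of 0.41. The ligand Tgfb2 had 2947 normalised counts in OE, 15.2 in KO and 179 in WT (16.5-fold, 14.2 to 19.2), and its receptor Tgfbr2 was 7.24 times WT. The extracellular inhibitors Nog (noggin) and Fst (follistatin) were also higher, Nog at 255 in OE and 13.2 in WT, and Fst at 766 and 107. The lower genes were Inhbb, an activin subunit, at 0.455 of WT, and Id4 at 0.410. FGF and ERK feedback genes were mixed, with 6 higher and 2 lower of 30 and a median of 0.14. Among the 28 with at least 50 normalised counts in WT, 4 were higher and 2 lower, at a median of 0.03. Fgf8 had 215 normalised counts in OE and 11.3 in WT, the dual-specificity phosphatase Dusp4 had 5578 and 1583, and Fgf1 was lower, at 0.258 of WT. Among other receptor tyrosine kinases and ligands 9 of 33 were higher and 0 lower. Egfr had 2864 normalised counts in OE, 181 in KO and 359 in WT, Flt1, a VEGF receptor also present in trophoblast, was 9.85 times WT, and Pdgfb was 4.40 times. Notch genes held 3 higher (Maml3, Lfng and Notch3 at 4.87, 2.27 and 2.24 times WT) and 1 lower of 23. These counts were not far from the shares of all genes, 9.74% higher and 3.12% lower. The lower Notch gene was Hes3, a repressor used in neural progenitors, which had 15.4 normalised counts in OE, 316 in KO and 231 in WT.

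Guidance molecules held 19 higher and 3 lower of 55, at a median of 0.42. Among the 51 with at least 50 normalised counts in WT, 15 were higher and 3 lower, at a median of 0.31. Sema3c had 1885 normalised counts in OE and 129 in WT, and the netrin receptor Unc5c had 179 and 8.50. Robo2, a slit receptor, was 13.7 times WT and Efna5, an ephrin, 7.57 times. The lower members were Robo4, an endothelial receptor, at 0.398 of WT, Sema4b at 0.467 and Sema5b at 0.473. LIF pathway genes lay close to WT, with 4 higher (Il6ra, Jak2, Lif and Pim2, at 4.03, 3.29, 3.08 and 2.09 times WT) and 0 lower of 25. Their median of 0.07 turned to -0.01 under upper-quartile scaling, so no direction is given for this list.

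Immediate early and AP-1 genes were higher. Of 26 compared, 15 were at least 2-fold higher and 0 were 2-fold lower, at a median log2 ratio of 1.23. Among the 24 with at least 50 normalised counts in WT, 13 were higher and 0 lower. Atf3, a stress-induced partner of AP-1, had 427 normalised counts in OE, 11.1 in KO and 28.3 in WT. Atf3 met the level minimum only through OE, so it had to differ. Fosl2 had 2226 in OE, 97.99 in KO and 276 in WT, and Jun had 1906, 127 and 382 in OE, KO and WT. Fosl1 was 4.55 times WT and Fos 3.28 times. Of the 26, 22 lay above WT and 4 below.

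p53 targets held 14 higher and 1 lower of 40, at a median of 0.43. Cdkn1a, the cyclin-dependent kinase inhibitor p21, had 4175 normalised counts in OE, 1927 in KO and 1345 in WT (3.11-fold, 2.92 to 3.30). Perp, a desmosomal effector of p53, was 6.38 times WT, the kinase gene Plk2 5.48 times, and the death-promoting Pmaip1 (Noxa) 2.91 times. The lower gene was Pltp, a lipid transfer protein, at 0.484. Among cyclins, cyclin-dependent kinases and their inhibitors 3 of 35 were higher and 0 were 2-fold lower, namely Cdk14 (6.20-fold), Cdkn2b, the inhibitor p15 (4.21-fold), and Cdkn1a. That share was near the 9.74% of all genes that were higher.

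MHC class I presentation and interferon genes divided within the list. Of 57 listed, 42 were compared, 18 were at least 2-fold higher and 2 were 2-fold lower, at a median log2 ratio of 0.52. Among the 36 with at least 50 normalised counts in WT, 12 were higher and 2 lower. The interferon-type element searched for in their promoters was a pair of GAAA copies with 2 bases of any kind between them, on either strand, the spaced repeat that interferon regulatory factors bind. It stood in 16 of the 36 list members with a promoter window (44.4%), against 3.44% of all windows and 3.38% of genes compared. The 16 included Oas1a and Oas1g, the 2 members that were 2-fold lower in OE. The list was written from MHC class I and interferon genes, so this share describes the list and not the change in OE. The windows below belong to members that were higher in OE, and lie at chr3:142620413-142620712 (plus strand) for Gbp2, chr3:142559794-142560093 (plus strand) for Gbp3 and chr8:46739495-46739794 (plus strand) for Irf2, in GRCm38.p6. They read 5′ to 3′ along the gene, with the element in capitals. Gbp3 holds 2 overlapping matches.
Gbp2: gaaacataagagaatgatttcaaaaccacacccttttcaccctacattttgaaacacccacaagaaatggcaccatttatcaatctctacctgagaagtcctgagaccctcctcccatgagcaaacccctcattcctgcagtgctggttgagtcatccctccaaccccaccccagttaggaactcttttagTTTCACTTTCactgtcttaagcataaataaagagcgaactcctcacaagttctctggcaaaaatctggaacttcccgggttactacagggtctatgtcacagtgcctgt
Gbp3: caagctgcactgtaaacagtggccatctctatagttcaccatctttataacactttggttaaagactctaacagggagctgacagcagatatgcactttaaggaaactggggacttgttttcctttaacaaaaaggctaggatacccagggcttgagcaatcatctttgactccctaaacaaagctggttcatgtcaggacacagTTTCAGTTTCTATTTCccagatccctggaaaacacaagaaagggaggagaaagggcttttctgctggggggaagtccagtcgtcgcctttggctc
Irf2: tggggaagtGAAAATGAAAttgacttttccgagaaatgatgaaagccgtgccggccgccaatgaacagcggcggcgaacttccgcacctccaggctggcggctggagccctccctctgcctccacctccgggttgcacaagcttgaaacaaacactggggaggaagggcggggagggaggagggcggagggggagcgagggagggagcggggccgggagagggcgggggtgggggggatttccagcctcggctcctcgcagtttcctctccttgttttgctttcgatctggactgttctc

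Guanylate-binding proteins, GTPases of cell-autonomous immunity, held 4 higher and 0 lower of 6 compared, and 2 higher of the 4 with at least 50 normalised counts in WT. Gbp2 had 3987 normalised counts in OE, 121 in KO and 195 in WT (20.5-fold, 17.8 to 23.7), and its neighbour Gbp2b had 3515 in OE, 117 in KO and 172 in WT. These 2 genes are near copies, so the split of reads between them is uncertain. Gbp3 and Gbp7 were 8.36 and 8.05 times WT, each with under 50 normalised counts in WT. Irf2, a regulatory factor that binds the element, had 182 in OE, 3.03 in KO and 15.1 in WT. Several genes of peptide loading were higher as well. Psmb8, an immunoproteasome subunit, was 8.29 times WT, and the peptide transporter genes Tap1 and Tap2 were 4.23 and 6.76 times WT. Irf2, Psmb8 and Tap2 had under 50 normalised counts in WT (15.1, 23.6 and 42.5). Irf2 and Psmb8 met the level minimum only through OE, so they had to differ. B2m, the MHC class I light chain, had 1922 in OE, 472 in KO and 523 in WT. The heavy chain genes H2-D1 and H2-K1 were 3.11 and 2.54 times WT and are related copies, so their separate values are uncertain. These 2, Tap1 and B2m were chosen after their values were seen. Several antiviral genes that type I interferon induces were lower or could not be compared. Oas1a and Oas1g were at 0.371 and 0.400 of WT, and Isg15, Ifit1, Ifit3, Irf7, Rsad2, Mx1, Mx2 and Usp18 were under the level minimum.

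**Figure D4:**
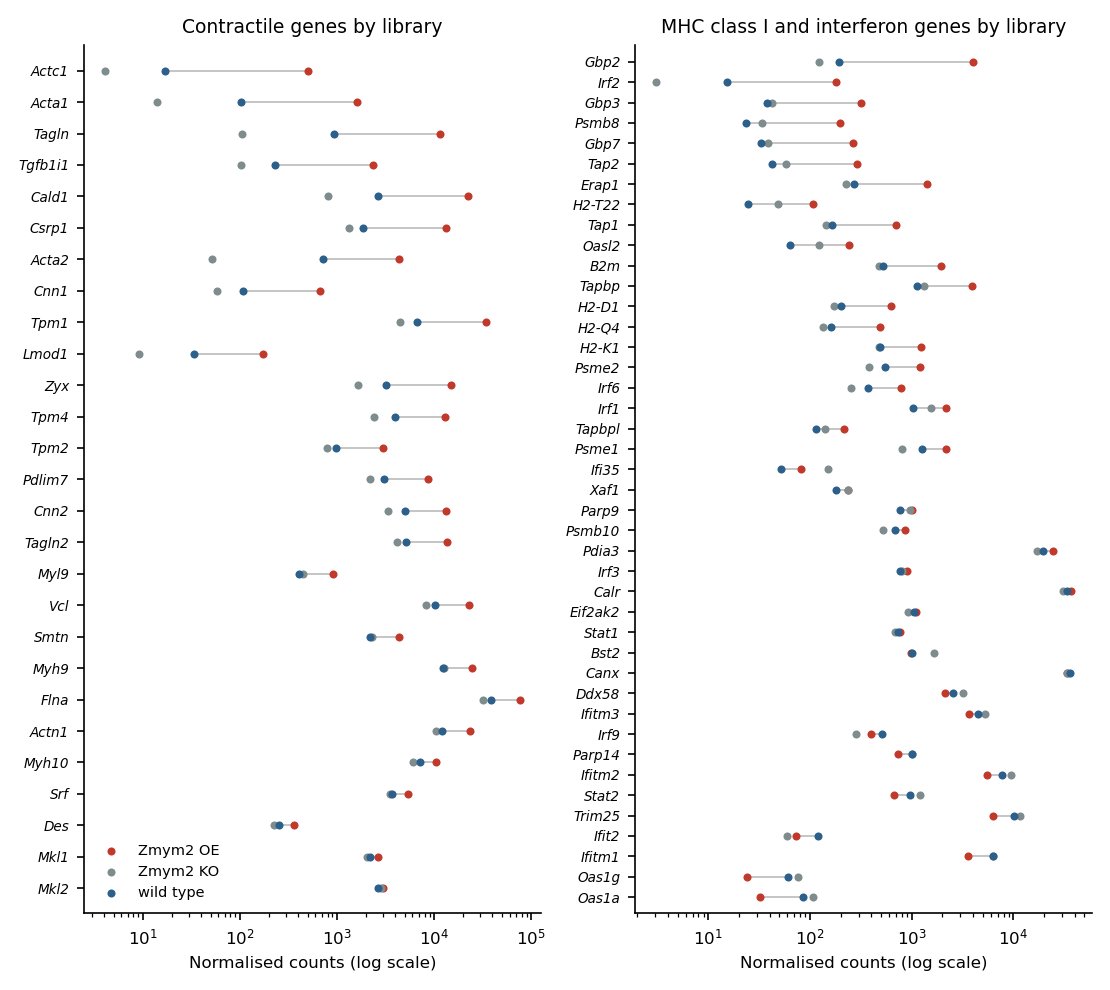
Normalised counts, on a log axis, of the 27 contractile genes (left) and the 42 MHC class I and interferon genes (right) that were compared. Each row is a gene, ordered by its OE to WT ratio, points are the OE, KO and WT libraries, and grey lines join OE and WT. All 27 contractile genes have OE to the right of WT, whereas the interferon genes run from Gbp2 (20.5-fold) to Oas1a (0.371 of WT).

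Chemokine, cytokine and NF-kappaB response genes held 10 higher and 0 lower of the 25 compared, of 49 listed, at a median of 0.67. Csf1, the macrophage growth factor, had 3171 normalised counts in OE, 33.3 in KO and 243 in WT (13.1-fold, 11.5 to 14.9). Cxcl10, an interferon-induced chemokine, had 309 in OE, 5.05 in KO and 17.01 in WT. Tnfaip3, the NF-kappaB feedback inhibitor A20, had 1093 in OE and 147 in WT, and the membrane-bound chemokine Cxcl16 had 1631 and 176. Interleukin receptor genes held 6 higher and 0 lower of 15 compared, of 41 in the table, among them Il15ra (259 in OE and 15.1 in WT) and Il10rb (161 and 23.6). Only 10 of the 15 had at least 50 normalised counts in WT, and 1 of those 10 was 2-fold higher. Of 16 blood markers, 11 were under the level minimum, Ptprc among them, and 5 had no read in OE. Of the 5 compared, Runx1, a blood and epithelial transcription factor, had 817 in OE, 51.5 in KO and 146 in WT, and Gata1 was lower. Their summed level over the 16 was 2072 normalised counts in OE, 932 in KO and 1274 in WT, and their part in the cytokine values was not tested.

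Hox genes and their cofactors held 9 genes 2-fold higher, several of them with few reads in WT. Of 46 Hox and cofactor genes listed, 14 passed the level minimum and 9 of these were 2-fold higher, with 0 lower. Of the 10 with at least 50 normalised counts in WT, 5 were higher, 3 of which are the Meis cofactors rather than Hox genes. Hoxa3, a regulator of the pharyngeal arches, had 204 normalised counts in OE, 7.07 in KO and 40.6 in WT. Hoxd9 had 169 in OE and 5.67 in WT, and Hoxb9 had 194 and 42.5. These 3 were under 50 in WT and met the level minimum through OE, so they had to differ. The cofactors Meis1, Meis2 and Meis3 were 3.23, 3.23 and 2.79 times WT. Other homeobox genes went both ways, with 11 higher and 6 lower of 35. Among the 27 with at least 50 normalised counts in WT the counts were 4 and 5. Msx1, a target of BMP signalling, was 11.6 times WT. Pax6, the eye and forebrain regulator, had 605 normalised counts in OE, 1399 in KO and 1726 in WT, and Pax8 was at 0.271. Forkhead and T-box genes held 5 higher and 1 lower of 27, but 1 higher (Foxj1) and 1 lower (Foxr1) of the 23 with at least 50 normalised counts in WT. Foxj1, a regulator of motile cilia, had 263 in OE and 111 in WT, and Foxr1 had 52.8 and 146. Basic helix-loop-helix genes held 3 higher and 5 lower of 23, and their median of 0.05 turned to -0.02 under upper-quartile scaling. Sohlh2, a germ cell regulator, had 99.05 in OE, 1677 in KO and 481 in WT, and Neurod1 was at 0.421. Nuclear receptors lay near WT, with 2 higher, Nr4a2 among them, and 1 lower (Nr0b1) of 24, and so did clock genes, with 1 higher of 19 (Bhlhe40, 3.33-fold).

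Synaptic genes held 15 higher and 1 lower of the 36 compared, of 63 listed, at a median of 0.67, and 8 higher and 1 lower among the 29 with at least 50 normalised counts in WT. Gria3, a glutamate receptor, had 800.1 in OE, 48.5 in KO and 86.9 in WT (9.20-fold), and Grin1, the obligate NMDA receptor subunit, was at 0.255. Ion channel genes held 13 higher and 2 lower of 53, at a median of 0.09. Among the 48 with at least 50 normalised counts in WT, 8 were higher and 2 lower, at a median of 0.03. Clcn5, an endosomal chloride transporter, had 6010.0 normalised counts in OE and 1531 in WT, whereas Ryr3, a calcium release channel, had 59.4 and 240.0. Neuronal markers were split, since 4 of 10 compared were 2-fold higher (Nefm, Syt1, Nefl and Gap43) and Tubb3, the neuron-specific tubulin, chosen after its value was seen, was at 0.537 of WT, with Dcx and Snap25 under the level minimum.

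Pluripotency-associated genes were more often below WT than above it. Of 39 compared, 0 were 2-fold higher and 7 were 2-fold lower, 33 lay below WT against 52.2% of all genes, and the median log2 ratio was -0.38. Sall1, a zinc finger partner of NANOG, had 9136 normalised counts in OE, 16782 in KO and 25998 in WT. Tcl1, an AKT coactivator, had 821 in OE and 2009.8 in WT, the F-box gene Fbxo15 had 3719.8 and 8325, and Nr0b1 was at 0.485. DNA methylation and TET genes held 0 higher and 2 lower of 20, namely Dppa3, a guard of maternal methylation (152 in OE, 2369.9 in KO and 805 in WT), and the methyltransferase Dnmt3a (5443, 12211 and 13052). Tet1, also chosen after its value was seen, was at 0.502 of WT. The germline, meiosis and piRNA list held 6 higher and 9 lower of 39, at a median of -0.50, and the same list in KO against the shared WT had a median of 0.44. Tuba3a, a testis tubulin, had 72.6 in OE, 2267 in KO and 369 in WT, and Hormad1, a meiotic chromosome axis gene, had 139, 1103 and 337 in the same order. Tudor-domain genes of the piRNA pathway were in both sets, with Tdrd7 at 4.83 times WT and Tdrd12 at 0.492. Of 12 primordial germ cell markers 0 were higher and 3 lower (Dppa3, Prdm1 and Prdm14).

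Genes of the rare ESC state that resembles the embryo's cells after the first cleavage were close to WT or moderately above it in OE. Of 15 compared, 1 was higher (Arg2) and 0 lower, at a median of 0.50. Zscan4f, of a family of near copies whose reads cannot be assigned with certainty, had 308 normalised counts in OE, 783 in KO and 189.9 in WT. The median of the same list in KO against the same WT library was 2.28. Imprinted genes, which are expressed from 1 parental allele, held 10 higher and 2 lower of 42, with a median of 0.14. Igf2, the fetal growth factor, had 4883 in OE, 292 in KO and 738 in WT (6.62-fold, 6.13 to 7.15). Nnat, a membrane proteolipid, had 6215, 417 and 1153 in that order, and Plagl1, a regulator of imprinted genes, was 4.68 times WT. Peg10, a retrotransposon-derived gene needed for placenta, had 207039 in OE and 83922 in WT. The lower members were Ddc, at 0.455 of WT, and Usp29, at 0.437.

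Partners of ZMYM2 did not move with it. Of 30 genes of the LSD1-CoREST complex, the ZMYM family and TRIM28 silencing, Zmym2 alone was 2-fold higher, 0 were lower, and the median was -0.11. Kdm1a, which encodes LSD1, had 10025 normalised counts in OE and 10343 in WT, and Trim28 had 101013 and 116290.0. Zmym3, a paralogue, was at 0.582 of WT. These 3 were named after their values were seen. NuRD and BAF genes held 2 higher (Chd3 and Smarca2, at 2.63 and 2.60 times WT) and 1 lower (Dpf1) of 42, and Polycomb genes 1 higher (Yaf2) and 1 lower (Phf19, an H3K36 reader) of 34. Over all genes compared, 9.74% were higher and 3.12% lower.

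Genes of DNA replication lay slightly but uniformly below WT. All 48 compared were below, none by as much as 1.5-fold, with a median log2 ratio of -0.24 that ran between -0.31 and -0.20 across the scalings tried. The helicase genes Mcm2, Mcm5 and Mcm3 had 21236, 20264 and 17711 normalised counts in OE and 26615, 26124 and 22102 in WT. DNA repair genes were similar, at a median of -0.26, with 37 of 42 below WT, and the mismatch repair gene Msh6 had 27439.7 in OE and 42832 in WT. Mitosis genes had a median of -0.08, with Top2a at 0.784 of WT. No member of these 3 lists was 2-fold apart in either direction, against 9.74% of all genes higher and 3.12% lower.

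Other constitutive machinery was also narrow in spread. Nuclear-encoded respiratory chain genes (76), cytosolic ribosomal protein genes (82), mitochondrial ribosomal protein genes (74), ribosome biogenesis genes (55), proteasome genes (31), splicing genes (46) and citric acid cycle genes (26) had 0 members 2-fold apart and medians of -0.09, -0.10, -0.12, -0.12, -0.06, -0.12 and -0.07. The housekeeping list, with 19 compared, had a median of -0.06 and 0 members 2-fold apart. Protein genes encoded by mitochondrial DNA were all below WT, 12 of 12, at a median of -0.24, with mt-Co1 at 0.894 of WT. The mitochondrial ribosomal RNA genes were further apart, and mt-Rnr2 had 84029 normalised counts in OE, 170620.0 in KO and 340957 in WT. Rn7sk, an abundant small nuclear RNA, had 245 in OE, 487 in KO and 804 in WT. These structural RNAs were thus lowest in OE and highest in WT. The libraries were made after depletion of ribosomal RNA, and the part of library preparation in these values was not tested.

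**Figure D5:**
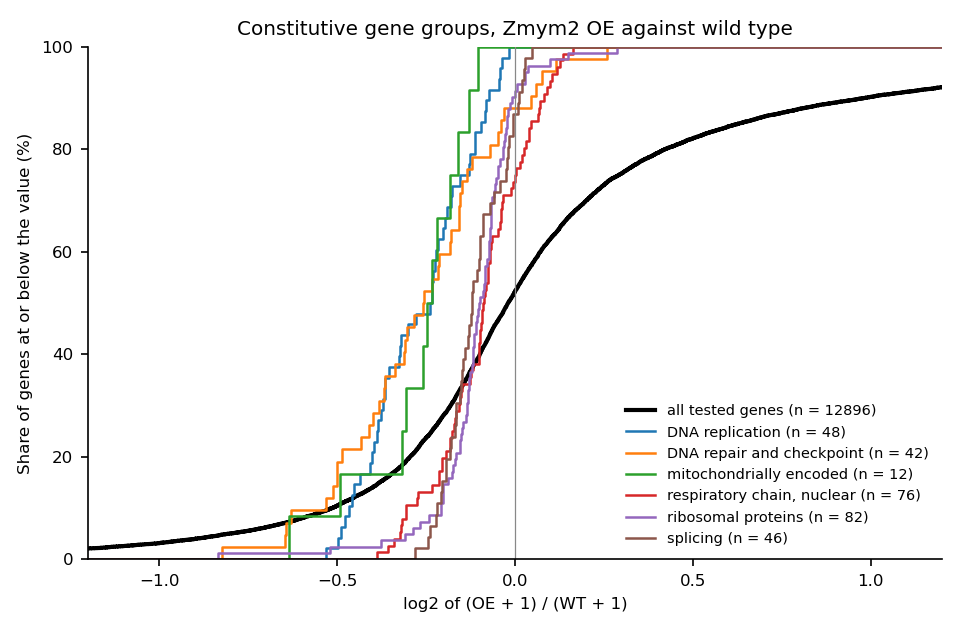
Cumulative distribution of log2 of (OE + 1)/(WT + 1) for all 12896 genes (black) and for 6 constitutive gene groups. The vertical axis is the share of genes at or below each value, in percent. The groups rise steeply left of 0, with replication genes centred at -0.24 and ribosomal protein genes at -0.10, while all genes spread more widely and have a tail to the right.

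Metabolic and stress lists mostly had medians near WT, but the ATF4 and NRF2 lists leaned below it. Over all genes compared, 9.74% were higher and 3.12% lower. Glycolysis genes held 2 higher and 1 lower of 30, with Pfkfb3, which makes the activator of phosphofructokinase, at 4079 in OE and 1273 in WT, the glucose transporter Slc2a3 at 91312 and 43424, and Pdk4 lower, at 0.353. Hypoxia genes outside glycolysis held 3 higher (Adm, Ddit4 and P4ha2) and 1 lower (Epas1, at 0.410) of 24. The medians of these lists, 0.02 and 0.07, fell below 0 under upper-quartile scaling. ATF4 targets held 1 higher (Vldlr) and 2 lower (Trib3 at 0.423 and Pycr1 at 0.460) of 35, at a median of -0.26. NRF2 and glutathione genes held 2 higher (Gpx8 and Gpx3, at 3.96 and 2.87 times WT) and 1 lower (Gpx2, at 0.464) of 37, at a median of -0.26. In these lists 28 of 35 and 29 of 37 genes lay below WT, against 52.2% of all genes. At 1.5-fold, 5 of the 35 and 10 of the 37 were lower and 3 in each list were higher. Over all genes these shares were 8.33% lower and 15.9% higher. Cholesterol genes held 0 higher and 1 lower of 33 (Abcg1), fatty acid genes 3 higher (Fads3, Elovl1 and Cpt1c) and 1 lower (Acacb) of 37, and unfolded protein response and chaperone genes 0 higher and 1 lower (Xbp1, at 0.491) of 35. Lysosome and autophagy genes held 2 higher (Ctsc and Naglu) and 3 lower (Manba, Mitf and Glb1) of 51. Primary cilium genes held 0 higher and 1 lower (Evc) of 49, and axonemal genes 2 higher (Foxj1 and Dnah8) and 3 lower (Hydin, Dnah12 and Dnah6) of 22. The chaperone, lysosome and primary cilium medians also changed sign with scaling, all within 0.10 of 0. Of 59 replication-dependent histone genes only 11 could be compared, with 1 higher (Hist1h2bc) and 2 lower (Hist1h1a and Hist2h2bb). Of 4 structural RNA genes compared, 1 was higher (Scarna2) and 1 lower (Rn7sk).

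Grouping genes by the letters of their symbols gave families that the lists held in part or not at all. Carbohydrate sulfotransferases (Chst), which sulfate chondroitin and related chains, held 6 higher and 0 lower of 10, at a median log2 ratio of 1.27, and 4 of the 8 with at least 50 normalised counts in WT were higher. Chst15 had 1592 normalised counts in OE, 186 in KO and 236 in WT, and Chst11 had 519, 77.8 and 144 in the same order. Dual-specificity phosphatases (Dusp), which switch off MAP kinases, held 6 higher and 0 lower of 18, with Dusp14 at 2003 in OE and 294 in WT and Dusp8 at 374 and 40.6. Cytochrome P450 genes (Cyp) held 7 higher and 0 lower of the 16 compared, of 104 in the table, with Cyp1b1 at 4.96 times WT and Cyp2b23 at 4.73. Of 10 TNF receptor genes 4 were higher, namely Tnfrsf19, Tnfrsf23, Tnfrsf12a and Tnfrsf10b, at 6.67, 5.91, 5.84 and 2.33 times WT. Of 12 Parp genes 4 were higher, namely Parp8, Parp10, Parp4 and Parp3, at 4.32 to 2.69 times WT.

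Families with lower members were fewer. Prdm genes, zinc finger proteins related to histone methyltransferases, held 0 higher and 3 lower of 10, and Prdm16 had 73.7 normalised counts in OE and 296 in WT. Prdm1 was at 0.382 and Prdm14 at 0.485 of WT. Of 5 Nlrp genes compared, 3 were lower (Nlrp4a, Nlrp4f and Nlrp14, at 0.301, 0.326 and 0.435 of WT), members of a family expressed in oocytes. Ceacam1, an adhesion molecule, had 499 in OE and 1921 in WT, and Ceacam20 had 53.9 and 212. The families with the most genes compared differed from each other. Predicted genes (Gm) held 16 higher (3.74%) and 25 lower (5.84%) of 428, and Zfp genes, most of them zinc finger proteins, held 11 higher (3.34%) and 3 lower (0.912%) of 329, against 9.74% and 3.12% over all genes. Solute carriers (Slc) held 22 higher (10.1%) and 7 lower (3.23%) of 217, close to those shares, and their median turned sign with scaling. Of the 148 families, 42 had no member 2-fold apart.

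The genes with the largest differences included many on no list. Of the 1256 higher and 403 lower genes, 843 and 319 were on none of the 78 lists used, which held 17.4% of the genes compared. Rfx6, a pancreatic endocrine transcription factor, had 276 normalised counts in OE, 5.05 in KO and 6.61 in WT (41.8-fold, 19.97 to 105). Tmprss2, a serine protease of epithelia, had 591, 6.06 and 15.1 in OE, KO and WT (39.1-fold, 23.9 to 68.9). Rgs17, an inhibitor of G protein signals, had 889 in OE and 34.96 in WT, and Ptprm, a receptor phosphatase of cell contacts, had 358 and 18.9. In all 4 of these genes the KO level was below WT or within a few normalised counts of it. All 4 had under 50 normalised counts in both WT and KO and met the level minimum only through OE. No weight is put on the likeness of KO and WT here.

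At the other end, several genes were low in OE and high in KO. Liph, a phosphatidic acid phospholipase, had 341 normalised counts in OE, 6755 in KO and 2002 in WT (0.170 of WT, 0.151 to 0.192). Tmem40, a membrane protein gene, had 45.1 in OE, 959.7 in KO and 244 in WT, and Slfn9, of the Schlafen family, had 106, 817 and 594 in the same order. Slfn9 was only 1.38 times WT in KO. For these genes WT lay between OE and KO, as it did for Tuba3a, Dppa3 and Sohlh2. OE and KO were set against the same WT library, so an unusual WT value would enter both ratios. As3mt, an arsenic methyltransferase, had 50.6 in OE, 289 in KO and 364 in WT, and the aspartic protease gene Napsa had 62.7, 118 and 434. In these 2 genes KO too was below WT, as it was for Hhip, Ptch1 and Prdm16. The genes lowest in OE thus had no common direction in KO.

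Markers of several other cell types moved with these groups, some of them counted in both, and their part in the results was not tested. Trophoblast markers held 8 higher and 0 lower of the 10 compared, of 18 listed, and their summed level was 37199 normalised counts in OE, 4677 in KO and 6520 in WT, most of it from Krt8 and Krt18. The placental hormone gene Prl3d1, Elf5 and Tpbpa were under the level minimum, and 6 of the 18 had no read in OE. Fibroblast markers held 4 higher and 0 lower of 8 compared, of 17 listed, while Prrx1 and Dpt, besides Lum and Postn, were under the minimum. Surface epithelium markers held 4 higher and 1 lower of 6, with sums of 32314, 2964 and 6056 in OE, KO and WT, and with Krt5, Krt14 and Trp63 under the minimum. Primitive and parietal endoderm markers held 6 higher and 1 lower of 15, with sums of 92882, 58082 and 60691. Endothelial markers held 1 higher (Flt1) and 3 lower of 10, with sums of 4303, 5948 and 6017.

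Among the autosomes and X, chromosome 8 had the OE to WT median furthest from 0. The median log2 ratio of OE to WT was -0.18 for the 686 genes of chromosome 8, and 11 of its 12 windows of 10 Mb lay below 0, while the other autosomes and X ran between -0.07 and 0.10. Chromosome 8 was also low in KO, at -0.24, against the same WT library, and DNA copy number was not measured here. Chromosome 14, which holds Zmym2 and Nefm, was lower still in KO, at a median of -0.47, against 0.10 in OE. The KO values of its genes are to be read beside that shift. The 8 genes of Y and the 17 genes of mitochondrial DNA had medians of -0.30 and -0.26. Of the compared genes named in the text, Acta1, Cdh1, Col4a1, Col4a2, Dusp4, Hhip, Hydin, Irf2, Mcm5, Plat, Sall1, Sfrp1, Tubb3 and Zfp42 lie on chromosome 8. Of 235 windows of 10 Mb, 1 had a median of 0.5 or more from 0, at 10 to 20 Mb of chromosome 10, where the median was 0.56 over 32 genes and 10 were 2-fold higher. Long intergenic RNA genes leaned lower, with 6 higher and 16 lower of 157, while 1235 of 12368 protein-coding genes were higher and 374 lower.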

How the data were processed

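RNA-seq libraries of mouse E14tg2a ESCs, 1 each of OE, KO and WT, made after depletion of ribosomal RNA, were compared. The deposited values are a signal per gene, which the authors made by trimming reads (Trim Galore), aligning them to the mouse genome GRCm38 (TopHat2), counting them over genes with featureCounts and dividing the counts by DESeq2 size factors; they are not scaled to gene length, so levels are not compared between genes. No source read here names the annotation release. Dividing each column by the value of 1 read returned whole reads for 100% of values (tolerance 1e-06), giving 41840774 reads in OE, 46995766 in KO and 50120551 in WT. A sheet of the authors' own ratios and 7 value columns that match no sample were not used.

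Genes with a mean of at least 50 over the 3 libraries were compared, and a gene was called higher or lower at 2-fold on the scale log2(normalised count + 1). With 1 library a group no test was possible, and count models were not fitted. Ratios carry 95% exact binomial (Clopper-Pearson) intervals on recovered reads, and the floor was 3 reads. Genes were described in 78 lists, 9 of them markers of other cell types, and by the letters of their symbols. Members and lists were chosen with earlier results of these data known. Named genes were the 25 largest and 25 smallest ratios among genes that reached 200 normalised counts in OE or WT, up to 8 a direction per list that reached 100 (otherwise the 4 with the highest mean), up to 4 per symbol family, and every member of a count of 5 or fewer, apart from a few genes that are not reported here. The ESC markers, genes named for a promoter match, mt-Rnr2 and the genes marked so in the text were chosen after their values were seen. Positions came from the gene table given with the genome (GENCODE M21, matching 99.3% of genes compared), promoters from RefSeq. Scalings, pseudocounts, minimums and fold thresholds were varied, and 2 alternatives were added after seeing the data. Scripts used Python 3.11.15, numpy 2.4.6, pandas 2.3.3, scipy 1.17.1, matplotlib 3.10.9, R 4.3.3 and edgeR 4.0.16 (TMM factors only), and were tested on simulated data.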

Additional observations from a re-analysis of the deposited data

How the results depend on the processing

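With 1 library a group, no library could be left out and no difference could be set against replicate spread. No paired analysis was possible because each group had 1 library and no result came from a test. Rescaling moved every gene alike, by 0.04 on the log2 scale with the total of gene reads, 0.01 with the housekeeping list, -0.00 with TMM factors and -0.08 with the upper quartile. The Zmym2 ratio of 7.18 became 7.39 with the total and 6.81 with the upper quartile. Counts moved by over 1.5 times with the minimum and the fold. The 1256 higher genes became 738 at a mean of at least 200, 4082 without a minimum, 2049 at 1.5-fold and 715 at 3-fold. The 403 lower genes became 687 at a mean of at least 10, 221 at 200, 1530 without a minimum, 1074 at 1.5-fold, 114 at 3-fold, and 211 where the counting interval had to lie beyond 2-fold, an alternative chosen after seeing the data. Of 857 alternative values of the 78 list medians, 758 stayed within a band set around the median and 99 moved. The band was the counting interval of the member nearest the median, so it is not an error of the median itself. Lists whose medians changed sign, all near 0, are marked in the text. Of the 256 named genes at least 2-fold apart, 256 stayed so with TMM factors and 250 with the upper quartile, which took Cpt1c, Hist1h2bc, P4ha2, Pim2, Scarna2 and Slc2a3 under 2-fold. The total took Dpf1, Lama1, Tdrd12 and Xbp1 under it. Genes near the minimum carry wide counting intervals, and genes with under 50 normalised counts in WT rest on few reads there.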
